A study of Homo sapiens with 17 samples.

Results

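The 195 genes described here carry a symbol made of ZNF and a number and had a mean of at least 150 raw counts over the 17 libraries, and were thus chosen by their own abundance. They were found among 475 genes with such a symbol and 58870 genes in all. Just inside the limit stood ZNF205, ZNF446 and ZNF595, with mean counts of 150.9, 151.3 and 151.6. Just outside it stood ZNF415, ZNF417 and ZNF653, with 148.0, 148.7 and 148.8. ZNF93, which was singled out for its level at 1 h, passed the limit. All 195 genes, called ZNF members in what follows, were annotated as protein-coding and passed the filter on low counts.

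RNA was sequenced from MDA-MB-231, an established human triple-negative breast cancer line that the labels call mesenchymal and basal B. All libraries carry the label of treatment with TRAIL, a TNF family ligand that binds death receptors, at 45 nM, for 0, 1, 3, 6, 12 or 24 h. Each time was sampled with 3 libraries, except that 1 h is represented by 2, and the libraries at 0 h carry the same treatment label. As the labels give no untreated library at a later time, time with TRAIL and time in culture cannot be told apart, and every comparison with 0 h shares the same 3 libraries. In bulk RNA, a change within cells and a change in which cells remain cannot be told apart either.

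Most ZNF genes encode C2H2 zinc finger proteins, in which tandem fingers, each holding a zinc ion between a pair of cysteines and a pair of histidines, read DNA sequence. Many of them also carry a KRAB domain, which binds TRIM28 (KAP1) and through it the histone methyltransferase SETDB1 and HP1 proteins, and such KRAB zinc finger proteins are best known as repressors of transposable elements. They lie largely in gene clusters on chromosome 19 that arose by repeated duplication. Others have no KRAB domain and act as activators, chromatin adaptors, RNA-binding proteins or ubiquitin ligases.

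The line's defining genes were checked first. VIM lay between 2495 and 3724 CPM (counts scaled to a common library size after TMM, a correction for composition), CDH1 did not pass 1.01 CPM, and ESR1, PGR, PTPRC, CD3E and KRT5 had at most 5 counts in any library. Other genes listed as low or absent in the line, or as marks of other cell types, were detected. ERBB2 lay between 56.4 and 70.9 CPM, EPCAM between 13.1 and 19.3, CD68 between 57.6 and 98.2, and PECAM1 reached 3.98 CPM. Total counts ran from 13731520 to 19234924 per library. Replicates 2 and 3 at 6 h and replicates 2 and 3 at 24 h resembled each other far more than other replicates did, with a chi-square statistic per gene of 1.55 and 1.68 against 3.86 to 14.6 in the other pairs. Mitochondrial transcripts took between 3.66% and 9.71% of the counts.

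The ZNF members covered a broad range of structures. A KRAB-like sequence was found in the translated reading frame of 99 members and not in 96, and 78 members lay on chromosome 19, of which 58 had the KRAB match. The median number of C2H2 fingers matched was 10, with a range from 0 to 34. The 5 members without a match were ZNF839, ZNF862, ZNF330, ZNF185 and ZNF703. Transcripts of the members were long and poor in GC, with a median length of 4589 bases and a median GC content of 43.9%, against 3333 bases and 48.4% over the 15365 genes tested. Counts were not whole in 15 or more libraries for 40 members, as happens when fragments are divided between similar or overlapping genes, and were whole in all 17 libraries for 103.

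Promoter sequence from the RefSeq table on GRCh38.p14, 250 bases before to 50 bases after the start, was matched for 166 members. The sequence CCGGAAG, the core bound by ETS factors, stood on either strand in 69 of them (41.6%), against 10.7% of the 27305 promoters in that table. The cAMP response element TGACGTCA stood in 11 (6.63%) against 1.98%, and CCAAT in 71 (42.8%) against 35.7%. The AP-1 site TGANTCA stood in 10 (6.02%) against 7.76%, and the E-box CACGTG in 13 (7.83%) against 7.43%. The motif named for ZNF143 stood in 5 (3.01%) against 0.256%, and each kB pattern sought in 0, against 0.418% to 0.579%. Of the 38 matched members higher at 3 h, 14 held the ETS core (36.8%), 15 CCAAT (39.5%) and 4 the cAMP response element (10.5%). The AP-1 site stood in 4 of these 38 (10.5%) and the E-box in 5 (13.2%). Among the 38, the ETS core and CCAAT were thus rarer than among all matched members. The cAMP response element, AP-1 site and E-box were more frequent. These differences rest on few members and were not tested. These matches are descriptions of the letters in the window. The 27305 promoters were not limited to expressed or protein-coding genes, so no excess is shown to be particular to ZNF members. Members' windows were also richer in GC, with a median of 63.0% against 58.3% and 23 CG dinucleotides against 14. The upstream stretch of ZNF697, which rose most at 3 h, held none of the motifs sought and is not shown. The upstream stretches of ZNF93, ZNF202 and ZNF121 are shown because these members were among those that moved most at 1 h or 3 h and differ in the motifs held. Each runs 5′ to 3′ on the gene's own strand and ends before the first annotated exon, and capitals mark CCAAT in ZNF93, the ETS core read on the other strand in ZNF202 and the cAMP response element in ZNF121. The ZNF93 stretch is chr19:19900763-19900912 (plus strand), that of ZNF202 is chr11:123741676-123741825 (minus strand) and that of ZNF121 is chr19:9584534-9584683 (minus strand).
ZNF93: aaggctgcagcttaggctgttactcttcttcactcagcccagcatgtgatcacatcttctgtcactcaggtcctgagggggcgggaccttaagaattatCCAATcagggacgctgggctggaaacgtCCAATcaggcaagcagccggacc
ZNF202: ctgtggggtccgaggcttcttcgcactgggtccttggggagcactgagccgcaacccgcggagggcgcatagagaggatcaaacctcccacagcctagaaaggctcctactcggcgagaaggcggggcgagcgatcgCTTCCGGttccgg
ZNF121: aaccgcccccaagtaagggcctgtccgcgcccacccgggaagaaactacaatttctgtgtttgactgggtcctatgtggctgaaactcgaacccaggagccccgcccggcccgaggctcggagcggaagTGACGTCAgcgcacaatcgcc

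The 5 members with the most counts had no KRAB match. In CPM, which do not allow for length, ZNF207, a spindle factor also known as BuGZ, had the highest mean at 163, followed by ZNF146 (143 CPM), ZNF185 (124 CPM), an actin-associated LIM domain protein without C2H2 fingers, ZNF664 (110 CPM) and ZNF706 (105 CPM). Per kilobase of transcript the order was led by ZNF593, a factor of ribosome assembly, at 40.6 CPM per kilobase, then ZNF146 (37.9), ZNF706 (30.1), ZNF185 (28.0) and ZNF511 (27.5). The median member lay at 18.8 CPM.

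Levels moved with time in most members, by small amounts. In the test of all times together, 147 of the 195 members (75.4%) were called, that is, had a p-value below 0.05 after Benjamini-Hochberg adjustment over all genes in edgeR's quasi-likelihood test, against 64.2% of all genes tested. Shares of all genes, here and below, were not matched for abundance and include genes such as CDH1, with a mean count of 7.59. At 3 h against 0 h, 29 of the 97 members above the members' median count were called higher and 4 lower. Of the other 98, 18 were higher and 2 lower. The ratio of the highest to the lowest time mean had a median of 1.34 and ran from 1.07 to 2.53. The highest mean fell at 3 h in 72 members (36.9%, against 25.9% of all genes) and at 0 h in 7 (3.59%, against 8.64%). The lowest mean fell at 0 h in 31 members (15.9%, against 6.92%), at 1 h in 43 (22.1%, against 12.8%) and at 24 h in 51 (26.2%, against 25.3%).

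The members shifted by a small amount at 3 h in all 3 libraries. The median deviation of the members from their own means over the 17 libraries, in log2 CPM, was -0.039, -0.089 and -0.083 in the 3 libraries at 0 h and -0.016 and -0.045 in those at 1 h. At 3 h it was 0.092, 0.053 and 0.090, and these were above every library of 0 and 1 h. The 6 h libraries gave 0.0081, 0.033 and 0.030, the 12 h libraries 0.019, 0.055 and -0.025, and the 24 h libraries -0.054, 0.011 and -0.014, so that the last overlapped both others. Summed over all members, RNA at 0 h came to 4819, 4705 and 4730 CPM, and at 3 h to 5259, 5166 and 5278 CPM. The 3 h libraries also had mitochondrial shares of 7.99% to 8.97% against 5.53% to 8.37% at 0 h, and the slopes on transcript length given further on, whose part in the shift was not tested beyond the length and GC correction.

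**Figure D1:**
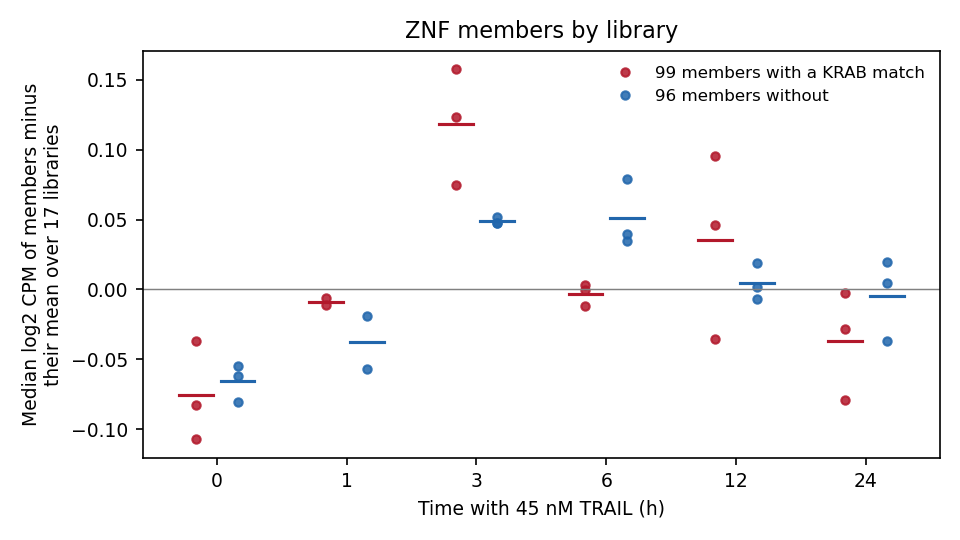
Median deviation of ZNF members from their own means over the 17 libraries (vertical axis, log2 CPM) by hours with 45 nM TRAIL (horizontal axis), each point being 1 library and each bar the mean of its time. Red points are the 99 members with a KRAB match and blue points the 96 without, and at 3 h the red points (0.12, 0.075 and 0.16) lie above all blue points of that time.

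At 1 h against 0 h, 1 of the 195 members was called, with a background of 0.312% of all genes called (0.26% higher and 0.0521% lower), and that member was ZNF93. Its call is a description, since it was chosen for this value. ZNF93 is a KRAB protein known for repressing a family of LINE-1 elements in primates, and it lies at chr19:19900913-19963464 on the plus strand. Its level was 11.6, 10.8 and 12.0 CPM at 0 h and 25.6 and 24.3 CPM at 1 h, a log2 difference of 1.12 ± 0.11 (SE). At 3 h it was back at 11, 11 and 12.3 CPM, and from 6 to 24 h it lay between 9.17 and 12.7 CPM. Both 1 h libraries thus stood above every other library, and the 15 others overlapped.

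Within 500 kb of ZNF93, 22 other genes were tested, and all had an adjusted p of at least 0.965 at 1 h in edgeR. Among the zinc finger genes there, the log2 differences were -0.17 for ZNF253, 0.26 for ZNF682, 0.21 for ZNF90, 0.23 for ZNF506, 0.17 for ZNF486, 0.26 for ZNF14, -0.070 for ZNF101 and 0.089 for the pseudogene ZNF826P. Of all members, 12 had an unadjusted p below 0.05 at 1 h, and DESeq2 and limma-voom also called 1 member each. As ZNF93 was chosen for its 1 h value, its calls at 1 h are descriptions and lend it no support. Among all 8 comparisons, ZNF93 at 1 h was the sole member call with a change of at least 2-fold. The share of all genes so called against 0 h was 0.0651% (1 h), 1.08% (3 h), 1.46% (6 h), 0.586% (12 h) and 1.93% (24 h), and 2.59%, 0.989% and 0.423% from 3 to 6, 6 to 12 and 12 to 24 h.

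At 3 h, 53 members were called against 0 h (background 17.7% of all genes), 47 of them higher (24.1%, against 9.04% of all genes) and 6 lower (3.08%, against 8.71%). The median log2 difference of all members was 0.15 and that of all genes -0.0041, and 143 members lay above 0. Values of the 3 h and 0 h libraries did not overlap in 87 members (44.6%, against 33.9% of all genes), 73 of them higher at 3 h. At the other times against 0 h these shares were 45.6% against 44.1% (6 h), 35.9% against 32.6% (12 h) and 47.2% against 45.8% (24 h). With library size as the sole scaling, 33 members (16.9%, against 5.94% of all genes) were higher and 9 (4.62%, against 14.0%) lower. Leaving out 1 library lowered the 53 calls to 33 (without replicate 2 at 0 h), 34 (without replicate 3 at 0 h) and 35 (without replicate 1 at 3 h), each time with 28 to 30 higher. Counts for left-out libraries, here and below, are not set against all genes. Whether a loss of calls is particular to the members was not tested.

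**Figure D2:**
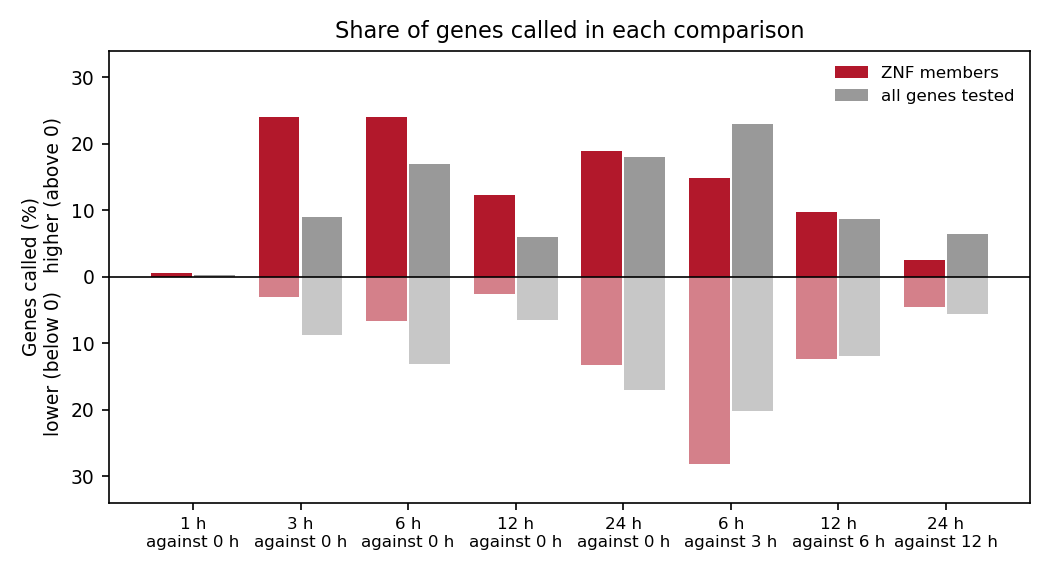
Percent of genes called in each of 8 comparisons (horizontal axis), higher above 0 and lower below 0, for the 195 ZNF members (red) and the 15365 genes tested (grey). At 3 h against 0 h the bars for members reach 24.1% higher and 3.08% lower, and those for all genes 9.04% and 8.71%.

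ZNF697, a finger protein with little described function, led the members that rose at 3 h. It had 18.7, 19.9 and 21.7 CPM at 0 h, 33.4, 32.3 and 37.0 CPM at 3 h, and 36.5, 38.4 and 39.8 CPM at 6 h. Every library of 3 and 6 h lay above every library of the other times. The log2 difference was 0.77 ± 0.095 at 3 h (edgeR adjusted p = 1.53e-05) and 0.93 ± 0.094 at 6 h (edgeR adjusted p = 1.2e-06), and the fall from 6 to 12 h, of -0.68 ± 0.091, was called too (edgeR adjusted p = 4.34e-05).

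ZNF202 carries a SCAN and a KRAB domain and is known as a repressor of lipid metabolism genes. It had 23.3, 22.2 and 20.7 CPM at 0 h, 36.5, 36.3 and 33.9 CPM at 3 h and 29.3, 30.2 and 26.5 CPM at 6 h. Its 3 h libraries were above all others. It rose by 0.69 ± 0.075 at 3 h (edgeR adjusted p = 3e-06), was still up by 0.38 at 6 h, and was 20.2, 20.8 and 19 CPM at 24 h.

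ZNF121, whose promoter stretch above holds the cAMP response element, had 46.4, 39.7 and 43.1 CPM at 0 h, 51.3 and 56.8 CPM at 1 h and 69.0, 70.0 and 66.1 CPM at 3 h. At 6 h it was 48.7, 41.9 and 42.0 CPM, overlapping 0 h. The rise of 0.67 ± 0.078 and the difference of -0.63 ± 0.077 from 3 to 6 h were both called (edgeR adjusted p = 7.13e-06 and 1.41e-05).

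ZNF331, a KRAB gene that is imprinted and often silenced in tumours, rose and later fell below its start. It had 37.3, 33.0 and 30.5 CPM at 0 h, 57.9, 54.5 and 46.8 CPM at 3 h, and 24.8, 22.2 and 22.4 CPM at 24 h. The 3 h libraries were the highest of all 17 and the 24 h libraries the lowest. The log2 differences from 0 h were 0.66 ± 0.11 at 3 h and -0.54 ± 0.11 at 24 h (edgeR adjusted p = 0.000305 and 0.00128).

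Of the 47 members higher at 3 h, 28 were called lower again from 3 to 6 h (59.6%, against 59.5% of the 1389 genes higher at 3 h). All 6 members lower at 3 h were called higher from 3 to 6 h, as were 60.6% of the 1338 genes lower at 3 h. These counts share the 3 h libraries and are descriptions. ZNF608 and ZNF292 led the 6 that were lower, and both held their 3 h call in all 32 alternative settings, as did ZNF697, ZNF202, ZNF121 and ZNF331. Of these settings, that limited to members with whole counts repeats the main fit for a single gene and could not differ. ZNF608 had 17.7, 18.2 and 18.1 CPM at 0 h and 11, 11.6 and 10.3 CPM at 3 h, with no overlap (-0.72 ± 0.12, edgeR adjusted p = 0.000344). ZNF292, a very large finger protein mutated in a neurodevelopmental disorder, had 19.9, 19.9 and 18.9 CPM at 0 h, 12.5, 10.9 and 14.6 CPM at 3 h and 21.5, 30.1 and 28.0 CPM at 24 h. It was therefore lowest at 3 h (-0.63 ± 0.13) and highest at 24 h (0.44 ± 0.12), on opposite sides of 0 h (edgeR adjusted p = 0.00348 and 0.00957). The 24 h call did not hold without replicate 2 at 24 h (adjusted p = 0.0669) or with the near-identical libraries averaged (0.0651).

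The other members lower at 3 h were ZNF618 (-0.55), ZNF367 (-0.40), ZNF687 (-0.39) and ZNF395 (-0.31), the last a factor known from the hypoxia response. ZNF618 fell short of the threshold when replicate 2 at 0 h (adjusted p = 0.112) or any of the 3 h libraries was left out, and ZNF367 when replicate 3 at 0 h (adjusted p = 0.0602) or replicate 2 at 3 h was left out. The ZNF687 counts were not whole in any of the 17 libraries, so that its values are uncertain.

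**Figure D3:**
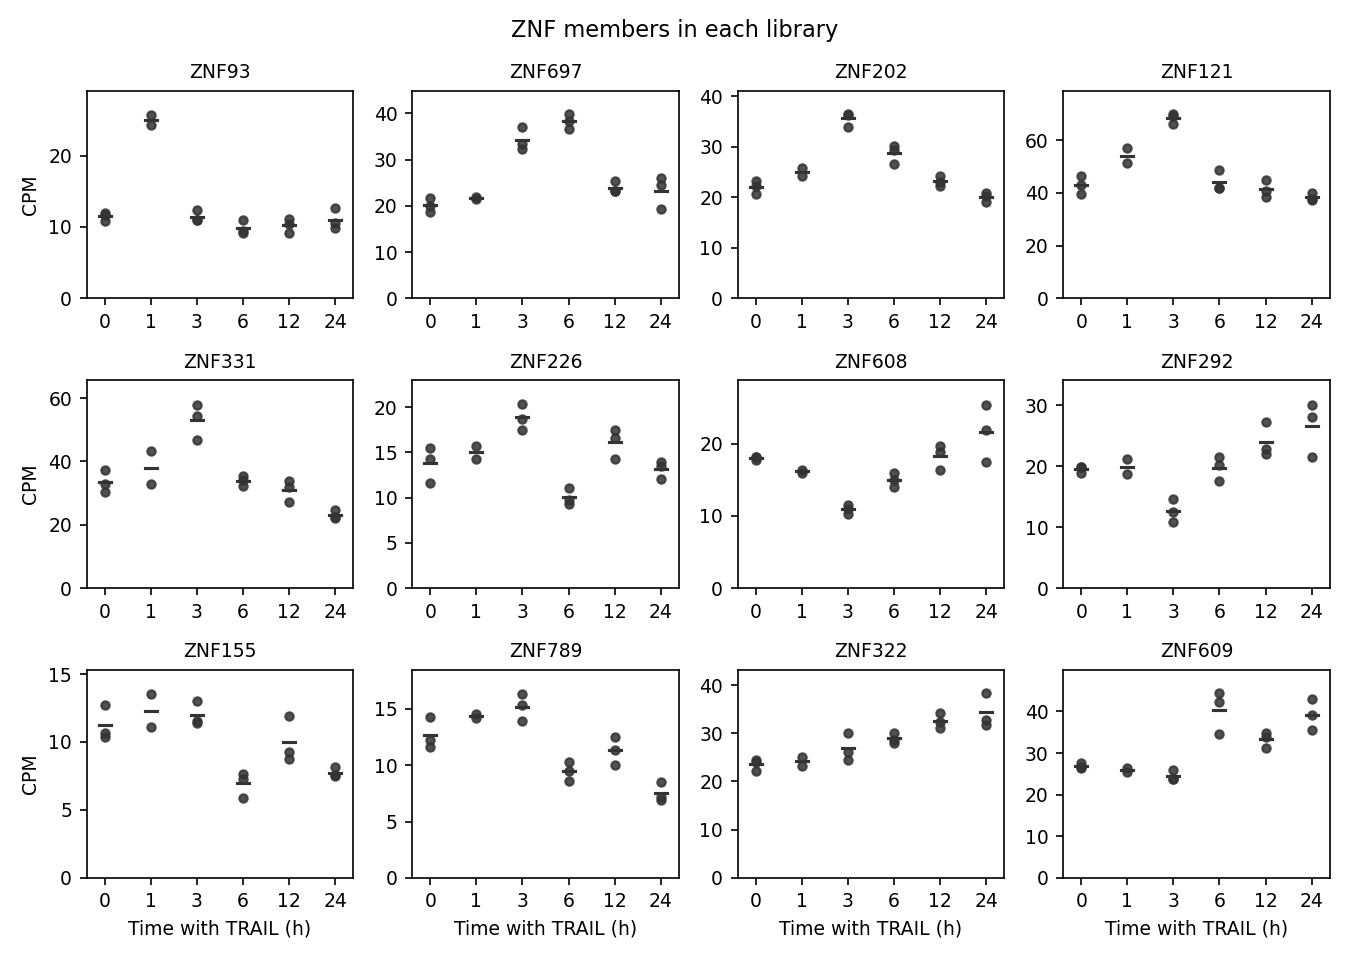
Level of 12 ZNF members (vertical axes, CPM, starting at 0) in each library by hours with TRAIL (horizontal axes), with bars for the mean of each time. ZNF93 is high at 1 h, ZNF697, ZNF202, ZNF121 and ZNF331 peak at 3 or 6 h, ZNF608 and ZNF292 are lowest at 3 h, and ZNF155 and ZNF789 are low at 6 and 24 h.

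Members with the KRAB match and members without it differed at 3 h mostly in the count of lower calls. Of the 99 with it, 26 were higher (26.3%, against 9.04% of all genes) and 0 lower (against 8.71%). Their median log2 difference was 0.19. At an unadjusted p below 0.05 edgeR found 1 lower, limma-voom 1 and DESeq2 0, and neither DESeq2 nor limma-voom called any lower. Of the 96 without it, 21 were higher and 6 lower, with a median of 0.10. From 3 to 6 h, 33 of the KRAB members fell and 6 rose (median -0.11), against 22 and 23 of the others (median 0.036). The difference between the groups was not tested. Within the KRAB group, 15 of 58 on chromosome 19 and 11 of 41 elsewhere were higher at 3 h.

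The partners of KRAB proteins were read from a list of 21 corepressor and heterochromatin genes, all of them tested. At 3 h, 0 were higher, also at an unadjusted p below 0.05 and also with DESeq2 and limma-voom, and 4 were lower in edgeR (5 in DESeq2), against 9.04% higher and 8.71% lower among all genes. The 4 were ATF7IP (-0.38), which stabilises SETDB1, the H3K9 methyltransferase EHMT2 (-0.43), the HP1 protein CBX1 (-0.19) and UHRF1 (-0.18), a maintenance factor of DNA methylation. TRIM28 itself had 482 ± 26 CPM at 0 h and 494 ± 39 at 3 h (SD, n = 3 each), and SETDB1 had 31.5 ± 0.87 and 33.6 ± 1.0 CPM, and neither was called at 3 h. From 3 to 6 h, 8 of the 21 rose (background 22.9%), among them the remodeller CHD4 (0.58) and TASOR (0.45), a subunit of the HUSH silencing complex. ATF7IP (0.29), EHMT2 (0.25) and CBX1 (0.30), lower at 3 h, were also among the 8. At 24 h against 0 h, 7 of the 21 were higher and 2 lower (background 18.0% and 17.1%). Those lower were TRIM28 (-0.21, edgeR adjusted p = 0.0151) and UHRF1 (-0.35), and the highest was CBX5 (0.52).

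At 6 h, 60 members were called against 0 h (background 30.1%), 47 higher (24.1%, against 16.9% of all genes) and 13 lower (6.67%, against 13.2%). The median was 0.082 against -0.022 for all genes. Upper-quartile scaling moved the counts over all genes too, and gave 32 members higher and 24 lower (16.4% and 12.3%, against 12.3% and 19.8% of all genes). After correction for transcript length and GC content 41 were higher and 22 lower (21.0% and 11.3%, against 18.8% and 11.3%). Counting the near-identical replicates 2 and 3 as 1 library at 6 h and at 24 h left 29 calls. Of these, 22 were higher and 7 lower (11.3% and 3.59%, against 9.41% and 7.15% of all genes). Leaving out replicate 1 at 0 h, replicate 2 at 6 h or replicate 3 at 6 h left 38, 33 or 32.

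ZNF697 had the highest change at 6 h, followed by ZNF28, ZNF609 and ZNF770. ZNF28, a KRAB gene, had 8.09, 8.47 and 9.71 CPM at 0 h and 11.1, 16.7 and 15.2 CPM at 6 h (0.71 ± 0.17, edgeR adjusted p = 0.00415). ZNF609, a partner of the Integrator complex and the host of a circular RNA, had 26.6, 27.7 and 26.4 CPM at 0 h, 23.9, 23.7 and 26.0 CPM at 3 h and 34.6, 42.3 and 44.4 CPM at 6 h. All 6 h libraries of ZNF609 were above those of 0 and 3 h (0.59 ± 0.089 over 0 h, edgeR adjusted p = 0.000108). ZNF770 was up by 0.59 at 6 h and by 0.60 at 24 h, but its counts were divided in all 17 libraries and both calls were lost when single libraries were left out.

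ZNF155, ZNF226, ZNF703 and ZNF789 fell furthest by 6 h among members without overlap. ZNF155 and ZNF226 are KRAB genes of the same chromosome 19 cluster. ZNF155 had 12.8, 10.3 and 10.6 CPM at 0 h, 13.1, 11.6 and 11.4 CPM at 3 h and 7.65, 5.90 and 7.28 CPM at 6 h (-0.69 ± 0.13, edgeR adjusted p = 0.000967). Its 6 h and 24 h libraries overlapped each other and lay below all the rest. ZNF226 had 15.4, 11.6 and 14.3 CPM at 0 h, 20.3, 18.7 and 17.5 CPM at 3 h, 9.29, 9.69 and 11.1 CPM at 6 h and 17.5, 16.6 and 14.3 CPM at 12 h. It was above 0 h at 3 h (0.45 ± 0.11) and below it at 6 h (-0.46 ± 0.12), with no overlap in either case (edgeR adjusted p = 0.00839 and 0.00649), though the 3 h call was lost without replicate 2 at 0 h (adjusted p = 0.0569). ZNF703, an oncogene amplified in luminal breast cancers, had 48.3, 50.5 and 45.6 CPM at 0 h and 37.7, 33.4 and 35.6 CPM at 6 h (-0.44 ± 0.080, edgeR adjusted p = 0.000578), and its 12 h and 24 h libraries too lay below those at 0 h, although its 24 h value of -0.25 became -0.062 after the correction.

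At 12 h, 29 members were called (background 12.4%), 24 higher (12.3%, against 5.96%) and 5 lower (2.56%, against 6.48%), with a median of 0.080 against -0.0032 for all genes. The count was 8 without replicate 2 at 12 h, 13 without replicate 1 at 0 h and 11 without replicate 2 at 0 h, again not set against all genes. ZNF28 (0.54), ZNF189 (0.52), ZNF510 (0.49) and ZNF322 (0.47) were the highest, and ZNF358 (-0.42), ZNF703 (-0.39), ZNF787 (-0.37) and ZNF428 (-0.35) the lowest. ZNF189, ZNF510 and ZNF28 are KRAB genes. ZNF189 had 9.15, 7.72 and 9.65 CPM at 0 h and 12.3, 13.3 and 12.4 CPM at 12 h, with no overlap, and ZNF510 had 9.89, 9.16 and 9.96 CPM at 0 h and 14.3, 14.0 and 12.5 CPM at 12 h. ZNF358, ZNF787 and ZNF428 did not pass the threshold after the length and GC correction (-0.16, -0.065 and -0.21), and ZNF28 did not without single libraries of 0 h or 12 h.

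At 24 h, 63 members were called (background 35.1%), 37 higher (19%, against 18.0%) and 26 lower (13.3%, against 17.1%), shares near those of all genes. The median was 0.045, and it was -0.024 after the length and GC correction, which gave 33 higher and 32 lower (16.9% and 16.4%, against 18.1% and 16.2% of all genes). With library size as the sole scaling 58 were higher and 15 lower (29.7% and 7.69%, against 24.4% and 12.1%). Counting the near-identical libraries once left 34 calls. Of these, 21 were higher and 13 lower (10.8% and 6.67%, against 11.2% and 11.5% of all genes). Leaving out replicate 1 at 0 h, replicate 2 at 24 h or replicate 3 at 24 h left 34, 40 or 41.

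ZNF789, a KRAB gene, fell most by 24 h, from 14.2, 11.6 and 12.3 CPM at 0 h to 6.91, 8.55 and 7.14 (-0.75 ± 0.12, edgeR adjusted p = 0.000127), though its counts were divided in every library and its 6 h call was lost without replicate 1 at 0 h (adjusted p = 0.0640) or replicate 2 at 6 h (0.0534). ZNF155 (-0.54), ZNF331 (-0.54) and ZNF593 (-0.54) followed, of which ZNF593 did not pass the threshold after the length and GC correction. ZNF770 (0.60), ZNF28 (0.56), ZNF609 (0.54) and ZNF322 (0.54) were the highest. The ZNF28 call was lost without replicate 1 at 0 h (adjusted p = 0.0655) or replicate 3 at 24 h (0.0754). ZNF322 had 24.0, 22.2 and 24.5 CPM at 0 h and 32.8, 38.4 and 31.7 at 24 h with no overlap, although its counts too were divided in all libraries. ZNF609 had 35.5, 42.9 and 39.2 CPM at 24 h.

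Counts of higher and lower members differed with transcript length at the later times, a difference that was not tested. By 24 h, 6 of the shortest 65 members were higher (9.23%) and 14 lower (21.5%), against 18.0% and 17.1% of all genes. Of the longest 65, 18 were higher (27.7%) and 2 lower (3.08%). Calls of all genes were not split by length, so this is not shown to be particular to the members. Over all genes, the slope of expression on log transcript length also differed between libraries. It ran from -0.064 to -0.010 at 0 h, from -0.14 to -0.061 at 3 h and from 0.022 to 0.13 at 24 h. After the correction there were 9 higher and 7 lower among the short and 11 and 11 among the long members, against 18.1% and 16.2% of all genes. At 3 h the correction raised the number of higher members to 72 (36.9%, against 12.9% of all genes) and of lower ones to 9 (4.62%, against 12.3%), and 46 of the 47 higher calls were made again. In the KRAB group, 41 members were then called at 3 h, each of them higher, and at 24 h 11 were higher and 22 lower.

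**Figure D4:**
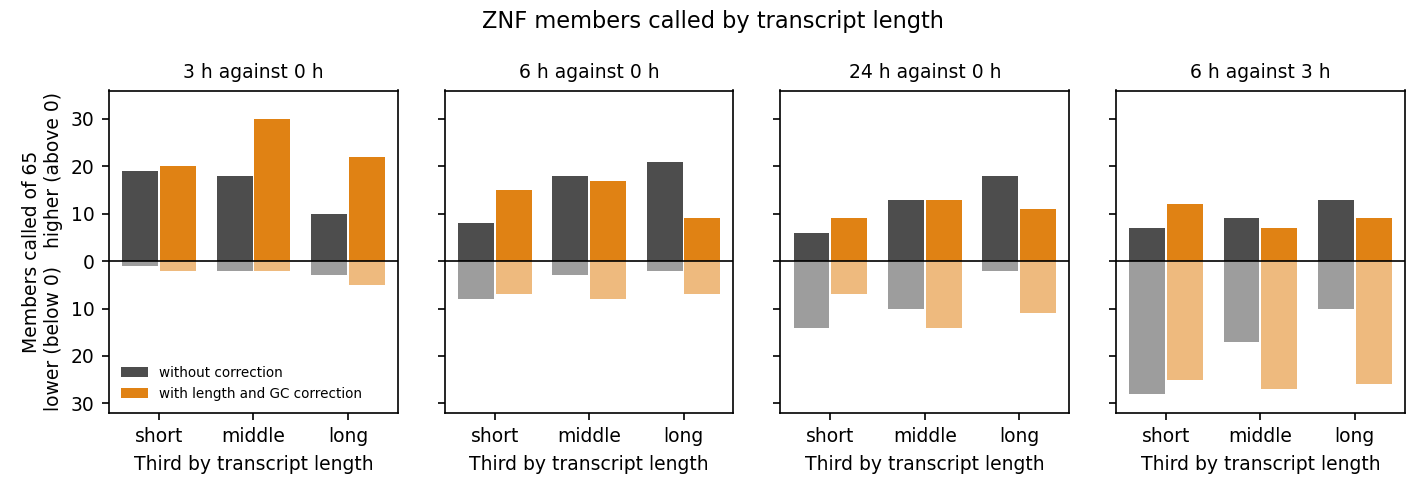
Number of ZNF members called (vertical axis, higher above 0 and lower below 0) in 3 classes of 65 members by transcript length (horizontal axes), for 4 comparisons, without (grey) and with (orange) correction for transcript length and GC content. At 24 h against 0 h the grey bars go from 6 higher and 14 lower in the shortest class to 18 and 2 in the longest, and the orange bars from 9 and 7 to 11 and 11.

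Between neighbouring times, 84 members were called from 3 to 6 h (background 43.2%), 29 higher (14.9%, against 22.9%) and 55 lower (28.2%, against 20.3%). The median was -0.045, and -0.020 over all genes. With library size as the sole scaling these medians were 0.026 and 0.050, with 44 members higher and 45 lower (22.6% and 23.1%, against 28.0% and 15.9% of all genes). From 6 to 12 h, 43 were called (background 20.6%), 19 higher (background 8.7%) and 24 lower (background 11.9%), a split that became 34 and 13 with upper-quartile scaling (17.4% and 6.67%, against 14.2% and 7.19% of all genes) and 23 and 19 with library size alone (11.8% and 9.74%, against 11% and 8.30%). Leaving out replicate 2 or 3 at 6 h, or replicate 1 or 2 at 12 h, gave 21, 28, 26 or 25 calls. From 12 to 24 h, 14 were called (background 12.0%), 5 higher (background 6.42%) and 9 lower (background 5.6%), a split that became 2 and 13 with upper-quartile scaling (1.03% and 6.67%, against 5.26% and 6.85%) and 6 and 25 with the correction (3.08% and 12.8%, against 9.47% and 7.20%). That count was 2 or 9 without replicate 1 or 2 at 12 h and 22, 3 or 6 without replicate 1, 2 or 3 at 24 h.

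ZNF226 fell between 3 and 6 h (-0.91 ± 0.11, edgeR adjusted p = 1.74e-05) and rose again by 12 h (0.68 ± 0.11, edgeR adjusted p = 0.000343). ZNF148, a GC-box binding factor, had 19.7, 16.9 and 20.0 CPM at 3 h and 27.1, 31.1 and 35.6 CPM at 6 h (0.73 ± 0.12, edgeR adjusted p = 0.000194). Its libraries at these times did not overlap.

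Over the 5 times against 0 h, 69 members were never called (35.4%, against 43.2% of all genes). The others were called at 1 time (64 members, 32.8% against 28.2%), at 2 (47, 24.1% against 19.6%), at 3 (12, 6.15% against 7.67%) or at 4 (3, 1.54% against 1.19%). Members called only higher numbered 87 (44.6%, against 25.1% of all genes) and members called only lower 28 (14.4%, against 24.4%). The 11 called in both directions (5.64%, against 7.29%) were ZNF706, ZNF395, ZNF266, ZNF326, ZNF331, ZNF593, ZNF700, ZNF839, ZNF292, ZNF226 and ZNF446, a group chosen after its values were seen.

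Members with described roles were read from a list of 41 symbols, of which 33 were members. Of these 33, 10 were higher and 3 lower at 3 h, against 9.04% and 8.71% of all genes. The 6 h counts were 12 and 1 (16.9% and 13.2% of all genes). Those of 12 h were 3 and 1 (5.96% and 6.48%), and those of 24 h 8 and 6 (18.0% and 17.1%). ZNF217, a breast cancer oncogene that binds the CoREST corepressor complex, had 52.3, 53.8 and 58.1 CPM at 0 h, 69.4, 77.7 and 72.4 CPM at 6 h and 64.5, 80.6 and 79.9 CPM at 24 h, with no overlap (0.42 ± 0.087 at 6 h and 0.45 ± 0.087 at 24 h, edgeR adjusted p = 0.00164 and 0.00072). ZNF281, a regulator of epithelial to mesenchymal transition, had 34.7, 32.0 and 33.5 CPM at 0 h and 42.9, 44.7 and 45.9 CPM at 6 h, and was called higher at 3, 6, 12 and 24 h (0.25, 0.42, 0.35 and 0.37). The 3 h call was lost in 9 of 32 alternative settings (highest edgeR adjusted p = 0.160) and the 12 h call without replicate 2 at 12 h (0.0630). ZNF644, a partner of the methyltransferases EHMT1 and EHMT2, was higher at 6 h (0.41) and 24 h (0.42), and each call was lost in 4 of 32 settings, with adjusted p = 0.111 and 0.0908 without replicate 1 at 0 h in edgeR.

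Among silencing factors, ZNF91, a KRAB protein known for repressing SVA elements, had 11, 10.2 and 10.4 CPM at 0 h, 13.2, 13 and 16.1 CPM at 3 h and 12.9, 14.4 and 14.8 CPM at 24 h (0.42 ± 0.11 and 0.41 ± 0.10, edgeR adjusted p = 0.00995 and 0.00489). Its 3 h and 24 h libraries all lay above those at 0 h. ZNF274, which brings SETDB1 to the ends of zinc finger genes, had 58.9, 55.8 and 55.2 CPM at 0 h and 46.1, 48.7 and 49.2 CPM at 24 h (-0.24 ± 0.065, edgeR adjusted p = 0.00864), again with no overlap. With library size alone that difference was -0.16 and was not called (edgeR adjusted p = 0.0674). ZNF638, which links unintegrated viral DNA to the HUSH complex, was higher at 12 h (0.28), a call lost after the length and GC correction (0.18, edgeR adjusted p = 0.0627).

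ZNF326, a subunit of the DBIRD complex that couples elongation to splicing, had 34.2, 34 and 37.5 CPM at 0 h, 47.2, 49.2 and 48.8 CPM at 6 h and 29.5, 29.7 and 28.0 CPM at 24 h. The 6 h libraries were its highest and the 24 h libraries its lowest (0.46 ± 0.069 and -0.28 ± 0.071, edgeR adjusted p = 0.000104 and 0.00575). ZNF598, the ubiquitin ligase that marks collided ribosomes, was higher at 3 h (0.28) and 6 h (0.26), with divided counts in all libraries, and each call was lost in 5 of 31 settings (highest edgeR adjusted p = 0.118 and 0.0895). ZNF451, a SUMO ligase, was higher at 6 h (0.27) and 24 h (0.27), but after the length and GC correction these were 0.072 and 0.038 and neither was called. ZNF207 was higher at 3 h (0.21) and 6 h (0.18). The first was lost with library size alone (edgeR adjusted p = 0.0879), and the latter turned to -0.033 after the length and GC correction. ZNF622, a factor of 60S ribosome assembly, was not called at any time.

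The 3 members that form a complex with the reader protein ZMYND8 differed at 3 h: ZNF687 was lower (-0.39 ± 0.084), ZNF532 had 0.21 ± 0.076 without passing the threshold (adjusted p = 0.0573 in edgeR) and ZNF592 had 0.027 ± 0.083. ZNF143, a factor of promoter loops, had 19.4, 16 and 20.9 CPM at 3 h and 23.9, 23.8 and 23.7 CPM at 6 h, a called rise of 0.34. Its relative ZNF76 fell by 0.28 over the same interval, with libraries that overlapped. Without replicate 2 at 3 h neither call held (edgeR adjusted p = 0.0604 and 0.0513).

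Genes with symbols of related zinc finger families and the same limit on mean count were few and are given as counts. The start of the symbol alone decided, and ZBTB8OS, ZFP36, ZFP36L1 and ZFP36L2 were counted without a check of their domains. Of 29 genes with a ZBTB symbol, given for fingers paired with a BTB domain, 4 were higher and 4 lower at 3 h (background 9.04% and 8.71%). At 6 h these counts were 11 and 1 (background 16.9% and 13.2%). Of 9 ZFP genes 1 was higher (ZFP36L1) and 1 lower at 3 h, and of 9 ZSCAN genes 1 was called, higher. At 6 h, 4 ZFP genes were higher (ZFP36, ZFP36L1, ZFP36L2 and ZFP91) and 0 lower, and 1 ZSCAN gene was higher and 0 lower. Of 4 ZKSCAN genes, 0 were called at 3 h, and 3 were higher and 0 lower at 6 h and again at 24 h. These differences from the ZNF members were not tested.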

How the data were processed

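Total RNA from MDA-MB-231 was made into stranded mRNA libraries, per the labels' protocols. The authors deposited 1 table of expected counts per gene, estimated numbers of fragments not scaled to depth or length, made with RSEM per the file headers and name. The submitters' processing notes list cutadapt 1.18, STAR 2.7.0f and build hg38, and the annotation and the strand setting of the counting are not given in the sources used here. Without strand, a gene and its antisense partner cannot be told apart. Non-whole values made up 10.8% of the authors' expected counts, zeros included, and 30.6% of those above 0.

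Counts were rounded, filtered with filterByExpr and scaled by TMM (factors 0.939 to 1.06) in edgeR 4.0.16 (R 4.3.3). Robust quasi-likelihood fits, with 1 mean for each time, were made on all 17 libraries and 15365 genes, with a common coefficient of variation of 7.06%, and Benjamini-Hochberg adjustment over all of them. A value after ± is an SE for log2 differences and an SD for levels. The labels do not say that replicates are separate cultures, so p-values measure the spread between these libraries, which may be technical. On simulated data with 100 genes changed by 1.5-fold and 100 by 2-fold, the script was tested, but the outcome is not given here and nothing is drawn from it. Gene positions, transcript length, reading frames and GC content came from GENCODE 29 (GRCh38), matched for 195 of 195 members. Fingers and KRAB domains were found by pattern in the translated frame and are approximate. The length and GC correction used smooth trends with 4 degrees of freedom per library.

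The members, the lists and the tests were chosen with earlier results of these data known. Members named were ZNF93, the 4 highest and the 4 lowest called members without overlap at each time, the 5 most abundant in CPM and per kilobase, those at the limit of 150 counts, and members of the role and corepressor lists. The alternatives were RLE and upper-quartile scaling, library size alone, 2 other filters, DESeq2 1.42.0, voom of limma 3.58.1, non-robust estimation, the groups compared alone, a replicate block, unrounded counts, averaging of near-identical libraries, the length and GC correction with and without the block, members with whole counts in at least 3 libraries, and each library left out.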

Additional observations from a re-analysis of the deposited data

How the results depend on the processing

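Of the other settings' values, 487 counts and medians stayed within 1.5 times the reported count or within 0.027 of the reported median (the SD of the 0 h libraries' median deviations) and 56 did not, and for single named calls 3917 kept their direction and side of the threshold, 337 lost the threshold and 6 changed sign. The 3917 include values of the setting limited to members with whole counts, which repeat the main fit and could not differ. After the length and GC correction, counts of members called were 2 at 1 h, 81 at 3 h and 31 from 12 to 24 h, and with the replicate block added 2, 83 and 38. Medians then were 0.19 (3 h), 0.042 (12 h), -0.024 (24 h) and -0.12 (3 to 6 h), and with the block 0.19, 0.040, -0.024 and -0.12. With library size alone the medians were -0.010 (1 h), 0.080 (3 h), 0.11 (12 h), 0.12 (24 h), 0.026 (3 to 6 h), 0.036 (6 to 12 h) and 0.0080 (12 to 24 h). With upper-quartile scaling they were 0.013 (6 h), -0.11 (3 to 6 h), 0.078 (6 to 12 h) and -0.060 (12 to 24 h). With the near-identical libraries averaged, 29 (6 h), 34 (24 h), 20 (6 to 12 h) and 2 (12 to 24 h) members were called, with medians of 0.017 at 24 h and -0.074 from 3 to 6 h. The shares of all genes called in these comparisons were then 16.6%, 22.7%, 10.9% and 2.96%. Fitting only the groups compared gave 9 calls from 12 to 24 h, and the median at 24 h was 0.073 over the 155 members with whole counts in at least 3 libraries. The cause was not tested.

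Leaving out 1 library in turn gave these ranges of calls: 33 to 61 (3 h), 32 to 67 (6 h), 8 to 33 (12 h), 34 to 69 (24 h), 67 to 86 from 3 to 6 h, 21 to 47 from 6 to 12 h, 2 to 22 from 12 to 24 h, 1 to 1 at 1 h and 125 to 150 over all times. Medians ranged from 0.016 to 0.041 (1 h), 0.13 to 0.16 (3 h), 0.063 to 0.093 (6 h), 0.061 to 0.11 (12 h), 0.024 to 0.064 (24 h), -0.063 to -0.017 (3 to 6 h), -0.017 to 0.0044 (6 to 12 h) and -0.058 to -0.013 (12 to 24 h). Length and GC correction, without and with the block, turned ZNF207 at 6 h to -0.033 and -0.033, ZNF593 from 3 to 6 h to 0.0067 and 0.0044, and ZNF787 at 24 h to 0.0087 and 0.010.

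Replicate numbers were not taken to pair the libraries, since the labels name nothing they share and some pairs of the same number correlated negatively (median r 0.011, from -0.20 to 0.21). That 10 of 17 libraries correlated best with their own number is a hint from the data, not the design. With the replicate block alone the calls numbered 56 (3 h), 62 (6 h), 28 (12 h), 61 (24 h) and 142 (all times). Depth limited precision for members near 150 counts, and members with divided counts may carry counts of relatives.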
